A study of Mus musculus with 12 samples.

Results

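The genes that encode the mitochondrial respiratory chain were followed across 4 groups of mouse T cells, as 89 of the 22180 genes named on the array. A member was a transcript cluster, the probe set of one transcript, to which the platform annotation gave exactly 1 symbol. The symbol had to start with Nduf, Uqcr, Atp5, Cox4, Cox5, Cox6, Cox7 or Cox8, or be Sdha, Sdhb, Sdhc, Sdhd, Cycs or Cyc1, and the brightest cluster over the 12 arrays stood for a gene. This rule uses no measured difference between groups, but it was chosen with earlier results of these data known. The members were 32 subunits of complex I and 8 of its assembly factors (Ndufaf genes), 4 genes of complex II, 8 of complex III, Cycs for cytochrome c, 19 of complex IV and 17 of complex V. Ndufa4 and Ndufa4l2, named after complex I, were placed with complex IV, where the Ndufa4 protein is now known to sit. All 89 entered the tests, since no gene was removed for a low level. Among them 83 lay at or above 5.60, the median of all genes' mean log2 levels, and 6 lay below it (Ndufs5, Cox4i2, Cox8b, Ndufa4l2, Cox8c and Cox7b2).

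The respiratory chain sits in the inner mitochondrial membrane. Complexes I and II take electrons from NADH and succinate and hand them to ubiquinone, complex III passes them on to cytochrome c, and complex IV gives them to oxygen. Complexes I, III and IV pump protons, and complex V, the ATP synthase, uses the gradient to make ATP. Some subunits of every complex but II are encoded in mitochondrial DNA and were not members here, so the values describe the nuclear-encoded part. T cells that become activated take up more fuel and build mitochondria, and regulatory T cells are known for a comparatively large reliance on oxidative phosphorylation.

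RNA was measured on 12 Affymetrix arrays, 3 for each of 4 groups, from T cells of C57BL6-Foxp3-GFP mice, in which green fluorescent protein reports the regulatory T cell transcription factor Foxp3. CD8 Foxp3-positive and CD4 Foxp3-positive cells were the GFP-positive cells of cultures given TGF-β (5 ng/mL), retinoic acid (40 nM) and IL-2 (5 ng/mL). CD8 control and CD4 control cells were the GFP-negative cells of cultures given the same IL-2 alone. All cultures held 200000 T cells with 20000 CD11c dendritic cells of the BALB/c strain per well, and all groups carry the reporter. Culture lasted 4 days for the CD8 groups but 5 days for the CD4 groups, so lineage and culture time cannot be told apart. Within a lineage the cytokines and the sort on GFP changed together. Wells were pooled before staining, and nothing in the labels ties the replicates A, B and C of a group to separate cultures or animals. What the tests weigh is thus no more than array-to-array scatter, possibly technical in origin, and 3 arrays a group limit the precision.

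Foxp3, on whose reporter the cells were sorted, and the CD8 gene Cd8b1 were high in the groups so labelled. Foxp3 averaged 12.48 in CD8 Foxp3-positive and 5.66 in CD8 control cells, and 12.44 in CD4 Foxp3-positive and 5.76 in CD4 control cells. Cd8b1 stood at 11.97 and 11.86 in the CD8 groups against 6.17 and 7.72 in the CD4 groups, in the same order. It was thus lower in CD4 Foxp3-positive than in CD4 control cells (log2 fold change -1.55), and the effects on Cd8b1 differed between lineages (1.66). Cd8a ran the other way in CD4 cells (1.03, at means of 7.54 and 6.51). Markers of other cells the cultures could carry over lay mostly below the median level of all genes. Of 9 measured dendritic cell markers 3 lay above 5.60 (H2-Ab1, Cd209a and Ccl22, at means of 9.47, 9.36 and 6.53), and the mean of the 9 ranged over the arrays from 5.93 to 6.15 in CD8 Foxp3-positive, 6.11 to 6.18 in CD8 control, 5.98 to 6.32 in CD4 Foxp3-positive and 6.26 to 6.31 in CD4 control cells. Above 5.60 were also 1 of 5 B cell, 1 of 5 macrophage, 0 of 2 NK cell and 1 of 2 red cell and platelet markers. No background level was available, so no marker can be said to be at 0. One of the 9, Itgax, which encodes CD11c and is also made by some activated T cells, was lower in CD8 Foxp3-positive than in CD8 control cells (log2 fold change -1.76) and higher in CD8 control than in CD4 control cells (1.58). Other called markers did not all run the same way. Between the controls Ccl22 (-1.57) and Adgre1 (-0.85) were lower and Cd79b (1.31) was higher in CD8 cells. In CD8 Foxp3-positive against CD8 control cells Lyz2 (1.82), Cd79b (1.10), Pf4 (0.46) and Cd79a (0.36) were higher and Cd68 (-0.63) was lower. In CD4 Foxp3-positive against CD4 control cells Lyz2 (1.06), Ccl17 (0.78) and Cd79b (0.77) were higher, and Cd68 (-1.19), H2-Ab1 (-1.05) and Ebf1 (-0.64) were lower. For the difference between the CD8 and CD4 effects 1 dendritic cell marker was called lower. In CD8 Foxp3-positive against CD4 Foxp3-positive cells 1 B cell marker was called higher. The part of all these markers in the results below was not tested. In bulk RNA, fewer cells of a type and less RNA per cell cannot be told apart.

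The control cells of the 2 lineages held the most calls, all in the same direction. In CD8 control against CD4 control cells 34 members were higher and 0 lower (limma with Benjamini-Hochberg adjustment over all genes, adjusted p under 0.05; genes past this threshold are termed called). Of all genes 12.1% were called higher and 8.76% lower, and of genes at or above the median level 22.4% and 14%, against 41% of the 83 members above that level called higher. At an unadjusted p under 0.05, 49 members were higher and 4 lower. Shares of all genes at this looser cut were not computed. Counts at an unadjusted p, here and below, thus cannot be set against the shares given. The median log2 fold change of the 89 members was 0.24, against 0.00 for all genes and 0.05 for the genes above the median level, and 75 members had a positive value. The changes were small in size, up to 0.89 on the log2 scale. The count of higher members lay between 26 and 34 when each array was left out in turn, with 26 without CD4 control replicate B, and the count of lower members became 1 without CD8 control replicate C.

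**Figure D1:**
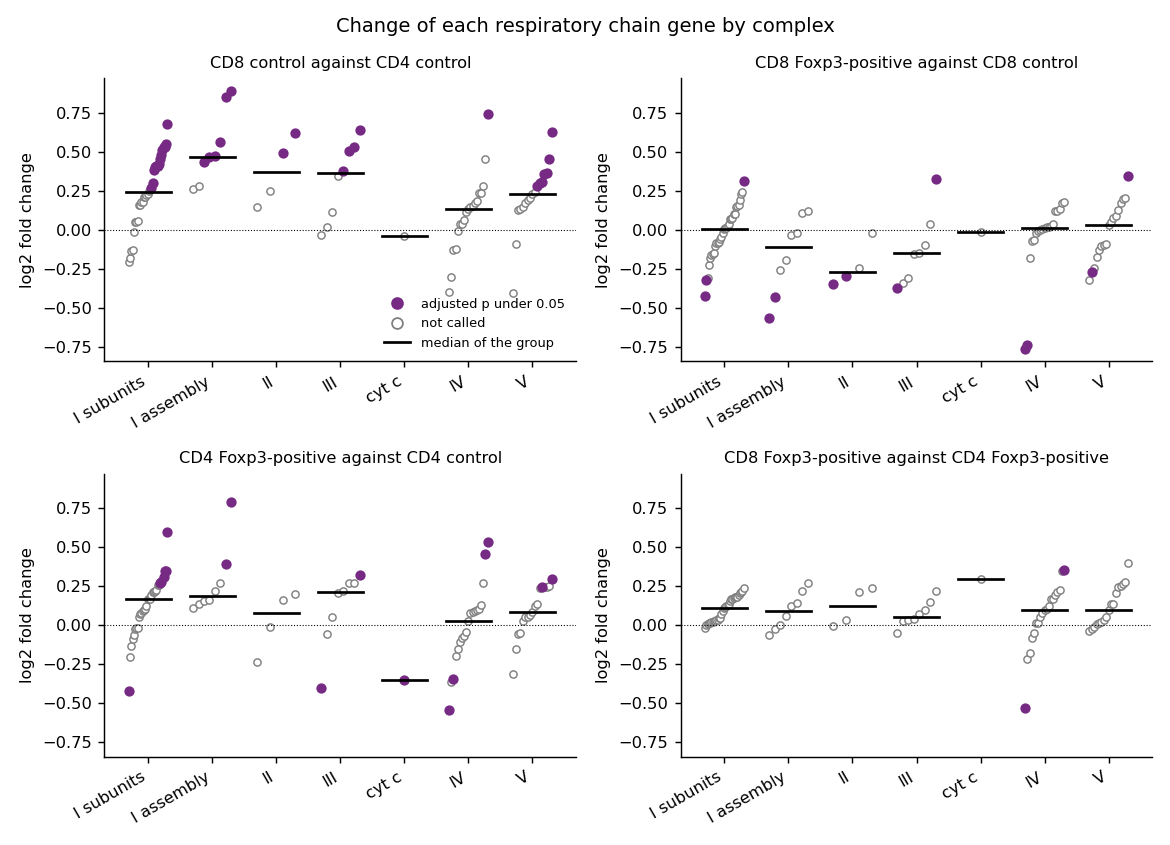
Log2 fold change (vertical axis) of each respiratory chain gene, ordered within its complex (horizontal axis), in 4 comparisons; filled points passed an adjusted p of 0.05 and black lines are medians. In CD8 control against CD4 control cells 34 points are filled and all lie above 0, whereas CD8 Foxp3-positive against CD4 Foxp3-positive cells have 2 filled points, Cox6b1 above and Ndufa4 below 0.

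Complex I, the largest group, held 14 of the 34 higher members as subunits. By share, the assembly factors (75%) and complexes II and III (50% each) stood above its subunits (43.8%). In CD8 control against CD4 control cells 14 of its 32 subunits were higher, 5 of the 6 nuclear-encoded core subunits measured, which carry the redox centres or lie beside them, and 9 of the 26 accessory subunits. Ndufs1, the largest core subunit, carries iron-sulfur clusters of the electron path. It stood at 9.35, 9.41 and 9.28 in CD8 control arrays against 8.72, 8.56 and 8.74 in CD4 control arrays. The lowest CD8 control array lay above the highest CD4 control array, and the log2 fold change was 0.68 ± 0.10 (SE, limma adjusted p = 0.000259). Ndufs8, another iron-sulfur core subunit, had 10.00, 10.05 and 9.99 against 9.54, 9.50 and 9.41, a log2 fold change of 0.53. Among the accessory subunits Ndufb6 (0.55) and Ndufa12 (0.53) had the largest values, and Ndufa9, which binds a nucleotide at the junction of the complex's arms, had 0.51. Ndufb9, the accessory subunit with the strongest signal, was not called in any of the 5 comparisons. Its value here was 0.18 ± 0.07 (adjusted p = 0.124).

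The assembly factors of complex I, which build the complex but are not part of it, showed the largest differences between the controls. All 8 had positive values, with a median of 0.47, and 6 were called. Ndufaf7, a methyltransferase that modifies a core subunit during early assembly, stood at 8.36, 8.29 and 8.39 in CD8 control arrays against 7.58, 7.33 and 7.47 in CD4 control arrays. This 1.85-fold difference (log2 fold change 0.89 ± 0.09, limma adjusted p = 2.16e-05) was the largest among the members in this comparison. Ndufaf6, needed for the assembly of the membrane arm in human cells, had 6.75, 7.00 and 6.96 against 6.06, 6.05 and 6.05, again with no overlap (0.85 ± 0.09, limma adjusted p = 2.57e-05). Ndufaf5, which hydroxylates a core subunit, had 0.56, and Ndufaf2, a late-acting factor related in sequence to Ndufa12, had 0.47. Without CD4 control replicate B the adjusted p of Ndufaf2 was 0.0583. Ndufaf3 (0.28) and Ndufaf8 (0.26) did not pass.

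Complexes II, III and V also held members that were higher in CD8 control cells. In complex II, succinate dehydrogenase, the membrane anchor Sdhd stood at 10.14, 10.17 and 10.04 against 9.59, 9.45 and 9.45 (log2 fold change 0.62 ± 0.08, limma adjusted p = 0.000138), and the flavoprotein Sdha had 0.49. The iron-sulfur subunit Sdhb (0.14) and the other anchor Sdhc (0.25) did not pass. In complex III 4 of 8 members were called. Cyc1, the haem-carrying cytochrome c1, had 8.75, 8.93 and 8.56 against 8.27, 7.85 and 8.21 (0.64 ± 0.14, limma adjusted p = 0.00444). The Rieske iron-sulfur protein Uqcrfs1 had 0.53, and the core proteins Uqcrc2 and Uqcrc1 had 0.51 and 0.38. Of the 17 complex V members 7 were higher. Atp5o, the stalk subunit that holds the catalytic head, had 6.40, 6.35 and 6.31 against 5.90, 5.76 and 5.53 (0.62 ± 0.12, limma adjusted p = 0.00287). The α and β subunits of the catalytic head, Atp5a1 and Atp5b, had 0.37 and 0.30. The call of Atp5b was lost in 12 of the 18 alternatives, with an adjusted p of up to 0.172.

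Complex IV held 1 call between the controls and cytochrome c none. Of 19 complex IV members Ndufa4 was the one called (5.26%, against 12.1% of all genes called higher), and the median was 0.14. Its brightest member, Cox6a1, had 0.11, with a 95% interval from -0.06 to 0.29, and Cox4i1, the ubiquitous form of the largest nuclear-encoded subunit, had -0.01. Of the 8 forms of complex IV subunits that are known from heart, muscle, lung, testis or low oxygen (Cox4i2, Cox6a2, Cox6b2, Cox7a1, Cox7b2, Cox8b, Cox8c and Ndufa4l2) 0 were called, with 1 higher and 2 lower at an unadjusted p under 0.05. The 11 other complex IV members, Ndufa4 among them, had 10 positive values and a median of 0.17. At an unadjusted p under 0.05 in limma 4 of these were higher and 0 lower. Cycs had -0.04 (95% interval -0.24 to 0.16).

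**Figure D2:**
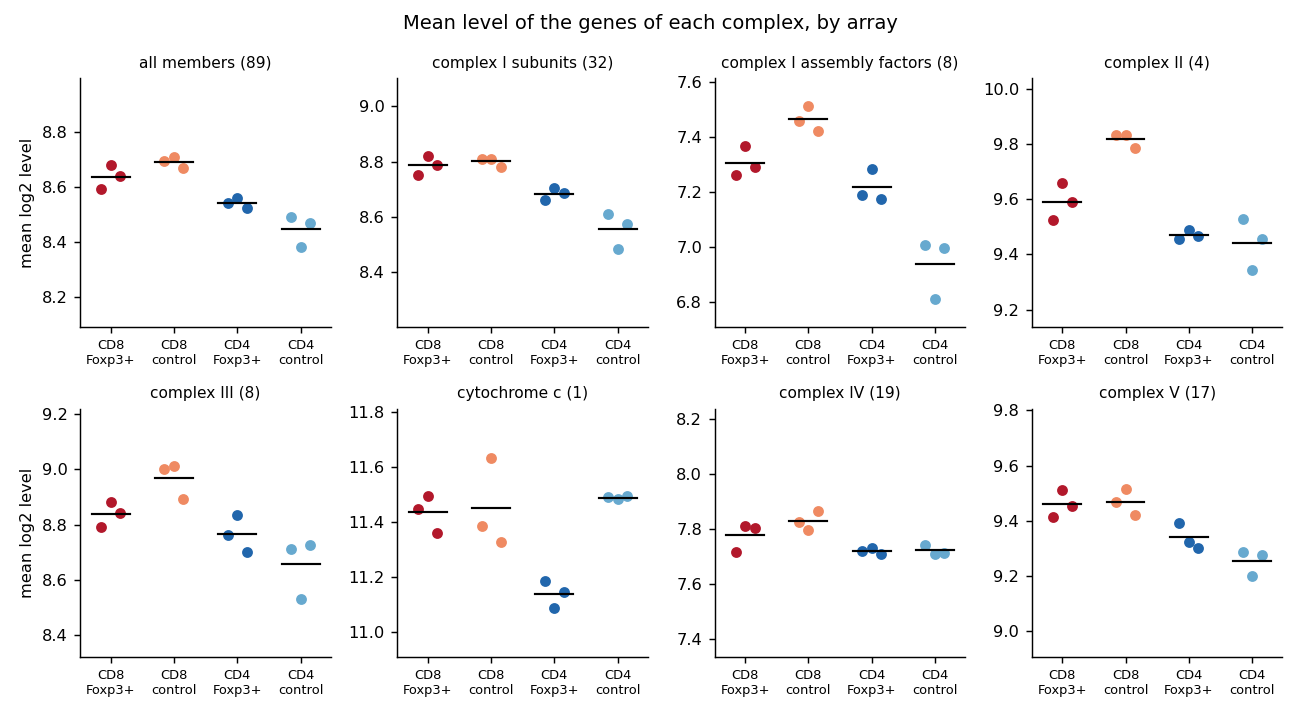
Mean log2 level of the genes of each complex (vertical axis, the same span in each panel) in each array (points) by group (horizontal axis), with black lines at the mean of 3 arrays and the number of genes in brackets. For all 89 members CD8 Foxp3-positive arrays lie at 8.59 to 8.68 and CD8 control arrays at 8.67 to 8.71, and CD4 Foxp3-positive arrays lie at 8.52 to 8.56 and CD4 control arrays at 8.38 to 8.49.

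The mean over all 89 members was 8.64 ± 0.04 in CD8 Foxp3-positive and 8.69 ± 0.02 in CD8 control arrays, and 8.54 ± 0.02 in CD4 Foxp3-positive and 8.45 ± 0.06 in CD4 control arrays (SD, n = 3 each). The CD8 groups overlapped at 1 pair of arrays and the CD4 groups did not overlap. CD4 control cells had the lowest of the 4 group means for 60 of the 89 members, and CD8 control cells had the highest for 42, both together for 32. Among genes at or above the median level the same held for 34.8%, 33.9% and 14.7%. CD4 control replicate B had the lowest array mean over the members, 8.38 against 8.49 and 8.47 in replicates A and C. The comparisons that follow share these control arrays, so their values are given side by side and are not independent of the difference described above.

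Promoter windows of 300 bases, from 250 before to 50 after the transcription start, were read from RefSeq (GRCm38.p6) for the members. A window was matched for 73 of 89 members by gene identifier, 78 windows in all. They were searched on both strands for the letters GCGC and TGCGC with any 1 base between them, which nuclear respiratory factor 1 (NRF1) binds, and for CCGGAAG (ETS factors, among them GABP), AAGATGGCG (YY1) and AAGGTCA (oestrogen-related receptors). The search also took CACGTG (E-box), GGGCGG (Sp1) and CCAAT (NF-Y). The first 4 factors are known regulators of nuclear genes for mitochondrial proteins. The NRF1 letters stood in 23.1% of the members' windows, against 4.60% of all 32851 windows and 10.2% of the windows of genes at or above the median level. For CCGGAAG the shares were 24.4%, 8.86% and 18.2%, for AAGATGGCG 8.97%, 1.40% and 3.11%, and for AAGGTCA 7.69%, 4.72% and 3.07%. CACGTG stood in 8.97%, 7.15% and 10.1%, GGGCGG in 46.2%, 35.7% and 62.4%, and CCAAT in 41.0%, 37.4% and 37.4%. Of the 28 matched members that were higher in CD8 control cells 7 held the NRF1 letters, as did 10 of the other 45. The windows of 4 of those 7 and of Ndufa4 are printed 5′ to 3′ with matches to the first 4 motifs in capitals, none of which overlap, as examples from complexes II, III and V picked after the search, and Ndufa4 because it was called in every comparison. The other 3 were Atp5o, Ndufaf4 and Ndufaf5. Sdha (chr13:74350191-74350490, minus strand) held 3 NRF1 matches, Uqcrc1 (chr9:108936398-108936697, plus strand) 2 and Atp5g2 (chr15:102670998-102671297, minus strand) 1. Sdhd (chr9:50603800-50604099, minus strand) held 1 each of the NRF1, ETS and oestrogen-related receptor letters, and Ndufa4 (chr6:11907401-11907700, minus strand) held none of the 7 motifs. A match is a run of letters, not a measured binding site.
Sdha: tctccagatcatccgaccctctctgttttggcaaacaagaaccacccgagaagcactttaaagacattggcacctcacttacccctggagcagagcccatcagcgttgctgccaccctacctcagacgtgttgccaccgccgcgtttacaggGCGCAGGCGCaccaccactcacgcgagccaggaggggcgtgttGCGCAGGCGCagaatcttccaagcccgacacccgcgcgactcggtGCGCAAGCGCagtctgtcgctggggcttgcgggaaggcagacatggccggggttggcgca
Sdhd: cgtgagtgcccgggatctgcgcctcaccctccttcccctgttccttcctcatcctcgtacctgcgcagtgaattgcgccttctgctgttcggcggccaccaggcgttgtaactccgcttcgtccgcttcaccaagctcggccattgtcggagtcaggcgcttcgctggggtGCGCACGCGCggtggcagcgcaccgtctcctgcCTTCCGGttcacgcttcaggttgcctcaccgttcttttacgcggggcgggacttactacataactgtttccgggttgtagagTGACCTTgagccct
Uqcrc1: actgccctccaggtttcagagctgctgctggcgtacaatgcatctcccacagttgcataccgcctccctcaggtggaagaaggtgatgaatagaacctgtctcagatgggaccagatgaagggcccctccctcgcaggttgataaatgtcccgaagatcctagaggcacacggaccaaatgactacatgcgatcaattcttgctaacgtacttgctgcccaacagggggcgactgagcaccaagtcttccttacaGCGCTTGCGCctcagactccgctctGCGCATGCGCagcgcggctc
Atp5g2: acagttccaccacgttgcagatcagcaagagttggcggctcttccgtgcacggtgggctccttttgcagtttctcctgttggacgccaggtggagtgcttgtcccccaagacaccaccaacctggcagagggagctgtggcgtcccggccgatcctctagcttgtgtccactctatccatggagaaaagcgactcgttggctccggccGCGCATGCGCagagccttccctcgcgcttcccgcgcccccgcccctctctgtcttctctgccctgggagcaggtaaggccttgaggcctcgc
Ndufa4: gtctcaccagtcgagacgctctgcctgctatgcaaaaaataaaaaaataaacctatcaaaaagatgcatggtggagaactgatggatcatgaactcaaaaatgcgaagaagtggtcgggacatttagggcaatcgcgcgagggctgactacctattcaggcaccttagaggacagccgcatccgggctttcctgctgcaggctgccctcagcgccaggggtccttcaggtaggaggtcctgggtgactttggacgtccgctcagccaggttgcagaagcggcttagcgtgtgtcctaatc

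In CD8 Foxp3-positive against CD8 control cells 3 members were higher and 10 lower, 3.37% and 11.2% of the 89. Of all genes 9.39% were higher and 10.6% lower, and of genes at or above the median level 16.4% and 18.8%. The median over the members was -0.02, as for all genes. The members that fell lay in every complex. Ndufa4, a small subunit at the edge of complex IV, stood at 9.94, 10.11 and 10.00 in CD8 Foxp3-positive arrays against 10.76, 10.82 and 10.69 in CD8 control arrays. All 3 Foxp3-positive arrays lay below all 3 controls, a 1.67-fold difference (log2 fold change -0.74 ± 0.12, limma adjusted p = 0.000602). Ndufaf6 had 6.46, 6.29 and 6.27 against 6.75, 7.00 and 6.96 (-0.56 ± 0.09, limma adjusted p = 0.000603). Ndufs1 had 8.99, 9.04 and 8.75 against 9.35, 9.41 and 9.28 (-0.42 ± 0.10), and the accessory subunit Ndufb10 had -0.32.

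Further falls in CD8 Foxp3-positive cells came from complexes II, III, IV and V. Both catalytic subunits of succinate dehydrogenase were lower, Sdha at 10.38, 10.49 and 10.23 against 10.68, 10.64 and 10.68 (-0.30 ± 0.09) and Sdhb at 8.86, 8.98 and 9.02 against 9.33, 9.40 and 9.16 (-0.34 ± 0.11). The Sdha call was lost in 10 and the Sdhb call in 7 of the 18 alternatives (adjusted p up to 0.157 and 0.129). Uqcrc1, a core protein of complex III, had 10.11, 10.17 and 10.12 against 10.54, 10.55 and 10.42 (-0.37 ± 0.09). Ndufaf2 had -0.43 and Atp5a1 -0.27, and the call of Atp5a1 was lost in 11 of the 18 alternatives (adjusted p up to 0.152). Cox6b2, known as a testis form of a complex IV subunit, had the largest value, -0.76 ± 0.18, but its mean was 5.37 in CD8 Foxp3-positive and 6.13 in CD8 control cells, near the median level of all genes.

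The members that rose in CD8 Foxp3-positive cells were 3 small subunits. Uqcrh, the hinge protein that links cytochrome c1 to cytochrome c, stood at 8.92, 8.87 and 8.88 against 8.59, 8.51 and 8.58 in CD8 control arrays, with no overlap (0.33 ± 0.07, limma adjusted p = 0.00626). Atp5e, the ε subunit of the ATP synthase stalk, had 8.81, 8.96 and 8.92 against 8.49, 8.63 and 8.53 (0.34 ± 0.09), and a second, dimmer cluster of Atp5e had 0.06. Ndufa1, an accessory subunit in the membrane domain, had 9.02, 9.12 and 9.21 against 8.76, 8.82 and 8.84 (0.31 ± 0.08). Cycs did not pass (-0.01, 95% interval -0.21 to 0.18, adjusted p = 0.946), nor did Cox6a1 (-0.07, 95% interval -0.25 to 0.10). Leaving out Foxp3-positive array A, or control array A or B, left 5 of the 10 falls in number, and leaving out Foxp3-positive array C left 6. The 3 rises became 1 without Foxp3-positive array C or control array A. The calls of Ndufa4, Ndufaf6, Ndufs1, Uqcrc1, Cox6b2 and Uqcrh were kept in every alternative run.

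In CD4 Foxp3-positive against CD4 control cells 13 members were higher and 5 lower, 14.6% and 5.62% of the 89. Of all genes 12.1% were higher and 10.4% lower. Of the 83 members at or above the median level 14.5% were higher and 6.02% lower. Both shares lay below those of all genes at or above that level, 20.6% and 15.9%. The median over the members was 0.11, against 0.00 for all genes and 0.04 for genes above the median level, and 63 of 89 values were positive. Ndufaf7 moved most, at 8.37, 8.23 and 8.15 in CD4 Foxp3-positive arrays against 7.58, 7.33 and 7.47 in CD4 control arrays. The groups did not overlap, and the difference was 1.73-fold (0.79 ± 0.09, limma adjusted p = 3.55e-05). Ndufaf3, an early-acting assembly factor, had 0.39. Ndufa7, an accessory subunit of complex I, had 7.84, 8.13 and 8.05 against 7.50, 7.30 and 7.45 (0.59 ± 0.10, limma adjusted p = 0.000973), and Ndufa9 had 0.35. Of the core subunits Ndufs7 (0.34), Ndufv1 (0.31) and Ndufs8 (0.27) were higher, while Ndufs1 (0.25 ± 0.10, adjusted p = 0.0815) did not pass.

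Outside complex I the rises in CD4 Foxp3-positive cells were Uqcrc2, Ndufa4, Cox4i2, Atp5g2 and Atp5h. Uqcrc2 had 10.57, 10.73 and 10.54 against 10.35, 10.20 and 10.32 in CD4 control arrays (0.32 ± 0.08). Ndufa4 had 10.59, 10.68 and 10.38 against 10.24, 9.79 and 10.02 (0.53 ± 0.12, limma adjusted p = 0.00543), opposite in sign to its value in CD8 cells. Atp5g2, one of 3 genes for the c ring of the ATP synthase, had 12.16, 12.15 and 12.07 against 11.90, 11.76 and 11.84 (0.29 ± 0.08), and its second cluster had 0.30. The other c ring genes, Atp5g1 (-0.31) and Atp5g3 (0.05), did not pass. Atp5h, a peripheral stalk subunit, had 0.24, and its call was lost in 13 of the 18 alternatives (adjusted p up to 0.16). Cox4i2, a form of the complex IV subunit known for its rise in low oxygen, had 0.46, at means of 5.83 in CD4 Foxp3-positive and 5.37 in CD4 control cells.

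Cytochrome c, which carries electrons between complexes III and IV and also triggers caspases when it leaves the mitochondrion, fell in CD4 Foxp3-positive cells. Cycs stood at 11.18, 11.09 and 11.14 in CD4 Foxp3-positive arrays against 11.49, 11.48 and 11.49 in CD4 control arrays. Its groups were wholly apart, with a log2 fold change of -0.35 ± 0.09 (limma adjusted p = 0.0145). The other 4 clusters that carry the Cycs symbol had -0.43, -0.15, -0.15 and -0.04, and 2 of them hold the same value on every array. On the mean of the 5 clusters the log2 fold change was -0.22 and the adjusted p 0.15. The other falls were Cox6a2 (-0.54), known as the heart and muscle form of its subunit, Ndufv3 (-0.42), an accessory subunit of the NADH-binding module, Uqcrq (-0.40), a small complex III subunit, and Cox5b (-0.35). A second, dim cluster of Cox5b had 0.26, so its clusters disagree in direction. The number of falls became 0 without Foxp3-positive array B, 3 without Foxp3-positive array A or control array A or B, and 2 without control array C. The number of rises became 6 without Foxp3-positive array B, 8 without Foxp3-positive array A and 5 without control array B, and those of Ndufaf7, Ndufa7, Ndufa9, Ndufa4 and Cox4i2 were kept in every alternative they entered. Cox4i2 lies below the median level and did not enter the one limited to genes at or above it.

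**Figure D3:**
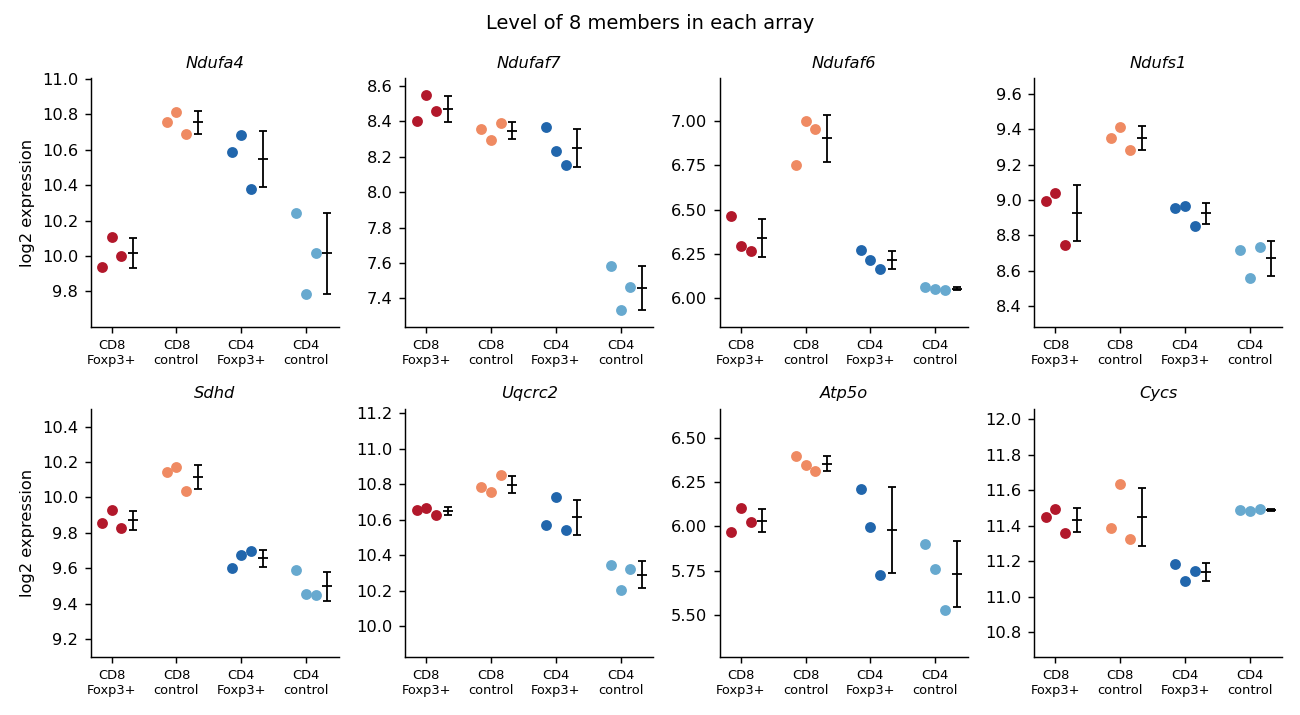
Log2 expression (vertical axis, the same span in each panel) of 8 members in each array (coloured points), with the mean and SD of 3 arrays in black, by group (horizontal axis). Ndufa4 is low in CD8 Foxp3-positive and CD4 control cells, Ndufaf7 in CD4 control cells alone, Ndufaf6 and Ndufs1 are highest in CD8 control cells, and Cycs is lowest in CD4 Foxp3-positive cells.

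The test of the difference between these effects, CD8 effect minus CD4 effect, called 12 members lower and 0 higher, against 7.48% and 6.01% of all genes and 13.4% and 9.84% of genes at or above the median level. At an unadjusted p under 0.05, 25 members were lower and 5 higher (limma), with no share of all genes computed at that cut. The 12 were 13.5% of the members. Lower means that Foxp3-positive against control went further down, or less far up, in CD8 than in CD4 cells. All 12 were also among the 34 members higher in CD8 control than in CD4 control cells, a comparison that shares the same 6 control arrays. Ndufa4 differed most (-1.27 ± 0.17, limma adjusted p = 0.000332). It was -0.74 in CD8 and 0.53 in CD4 cells, and was the sole member called in both. Ndufaf6 had -0.56 in CD8 and 0.16 in CD4 cells (difference -0.72 ± 0.13), and Ndufs1 -0.42 and 0.25 (difference -0.68 ± 0.14). Ndufaf7 had 0.12 and 0.79, so its difference of -0.67 ± 0.13 came with a rise called in CD4 cells alone. The other 8 were Uqcrfs1, Atp5o, Ndufa12, Sdha, Uqcrc2, Ndufb8, Sdhd and Atp5g2, with differences from -0.58 to -0.40. For Atp5o the adjusted p was 0.04998, at the threshold, and its call was lost in 11 alternatives, those of Sdhd and Ndufb8 in 10 each and that of Atp5g2 in 9. The second cluster of Ndufa12 had -0.03 against -0.51 for the one used.

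**Figure D4:**
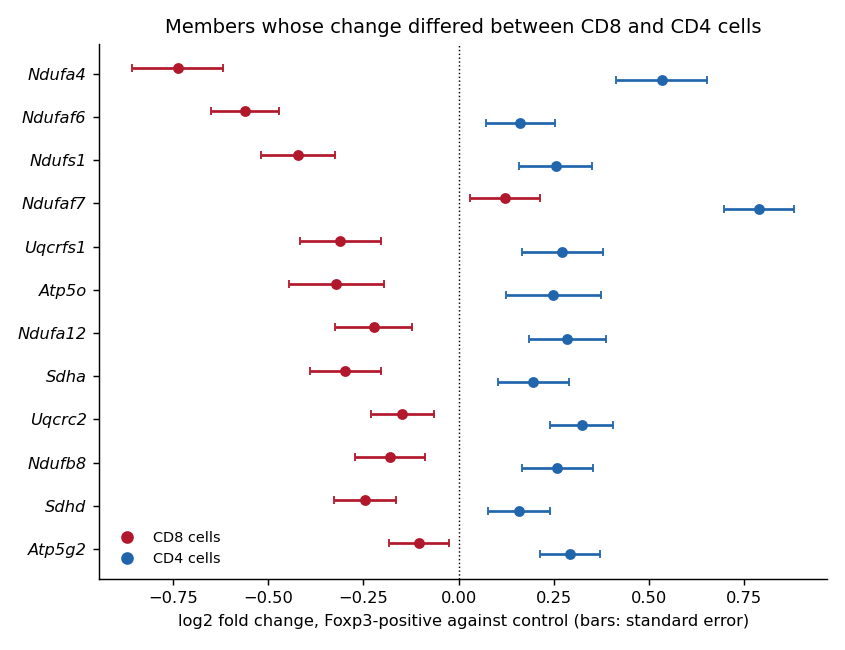
Log2 fold change of Foxp3-positive against control (horizontal axis) in CD8 cells (red) and CD4 cells (blue), with standard errors, for the 12 members whose effects differed between lineages at an adjusted p under 0.05. All red points but that of Ndufaf7 (0.12) lie below 0, and all blue points lie above 0.

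Cyc1 (-0.61 ± 0.19, adjusted p = 0.0553), Ndufs7 (-0.40, adjusted p = 0.0527), Ndufaf2 (-0.54, adjusted p = 0.0523) and Ndufs8 (-0.36, adjusted p = 0.0505) lay just outside the threshold of the interaction. The 12 became 5 without CD8 Foxp3-positive replicate A or C, CD4 control replicate B or CD4 Foxp3-positive replicate B, 6 without CD8 control replicate A and 7 without CD8 control replicate B or CD4 Foxp3-positive replicate A. Without CD8 control replicate B or C, 1 member was called higher. The calls of Ndufa4, Ndufaf6, Ndufaf7, Ndufs1 and Uqcrc2 were kept in every alternative run.

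Between the induced populations few members were called. In CD8 Foxp3-positive against CD4 Foxp3-positive cells 1 member was higher and 1 lower, where 2.41% and 2.3% of all genes and 4.12% and 3.58% of genes at or above the median level were called. Cox6b1, the ubiquitous form of a complex IV subunit that faces the intermembrane space, had 9.75, 9.77 and 9.79 against 9.35, 9.42 and 9.48 (0.35 ± 0.08, limma adjusted p = 0.0232). Ndufa4 had 9.94, 10.11 and 10.00 against 10.59, 10.68 and 10.38 (-0.53 ± 0.12, limma adjusted p = 0.0213). Both had no overlap between groups, but the call of Ndufa4 was lost without CD8 Foxp3-positive replicate A or C or CD4 Foxp3-positive replicate A or B (adjusted p 0.072 to 0.0953), and that of Cox6b1 without any CD8 Foxp3-positive replicate or CD4 Foxp3-positive replicate A or B (adjusted p 0.0613 to 0.0996). Without CD4 Foxp3-positive replicate C, 2 members were called higher. The values still leaned one way. The median was 0.09, against -0.01 for all genes and for genes at or above the median level, and 75 of 89 values were positive. The arrays of 29 members lay apart with CD8 higher and of 1 with CD8 lower (11.3% and 11.4% of all genes). These shares were not computed for genes at or above the median level, where most members lie. For Ndufs1, which differed by 0.68 between the controls, the value was 0.00 (95% interval -0.21 to 0.21), and for Ndufaf6 0.12 (-0.07 to 0.32). Cycs had 0.29 ± 0.09 (adjusted p = 0.102), at 11.45, 11.49 and 11.36 in CD8 Foxp3-positive against 11.18, 11.09 and 11.14 in CD4 Foxp3-positive arrays.

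Of the 89 members 40 were called in none of the 5 comparisons and 1, Ndufa4, in all of them. The uncalled genes included the brightest member of all, Cox6a1, as well as Cox8a, Cox5a, Cox4i1, Cox7a2 and Uqcrb. Cox6a1 stood at 12.90, 13.03 and 12.94 in CD8 Foxp3-positive, 13.08, 13.04 and 12.97 in CD8 control, 12.98, 12.95 and 12.89 in CD4 Foxp3-positive and 13.00, 12.88 and 12.86 in CD4 control arrays, so the 4 groups overlapped. The SD within a group had a median of 0.09 over members and groups and reached 0.38 for Cox6b2 in CD8 control cells.

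Genes that supply, build or maintain the chain were set beside it by counts, to be read against the 12.1% of all genes and 22.4% of genes at or above the median level called higher in CD8 control against CD4 control cells. In CD8 control against CD4 control cells 11 of 15 enzymes of the TCA cycle and pyruvate dehydrogenase, which make the NADH and succinate that feed complexes I and II, were higher and 0 lower, with a median of 0.42. Of 71 proteins of the mitochondrial ribosome, which translates the mitochondrially encoded subunits, 41 were higher and 1 lower (median 0.37). Of 20 genes that feed or carry electrons, make ubiquinone or exchange metabolites 14 were higher and 0 lower (0.37), of 22 genes of protein import 9 and 0 (0.26), and of 15 regulators of mitochondrial biogenesis 6 and 1 (0.24). The assembly factors of complex IV (17 genes) had 5 higher and 1 lower, those of complexes II, III and V (14 genes) 4 higher and 0 lower (29.4% and 28.6% higher, near the share of genes at or above the median level), and genes of defence against oxidants (10 genes) 4 higher and 1 lower. At an unadjusted p under 0.05 the lists with 0 lower in limma also had 0, but for 1 in the assembly factors of complexes II, III and V.

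**Figure D5:**
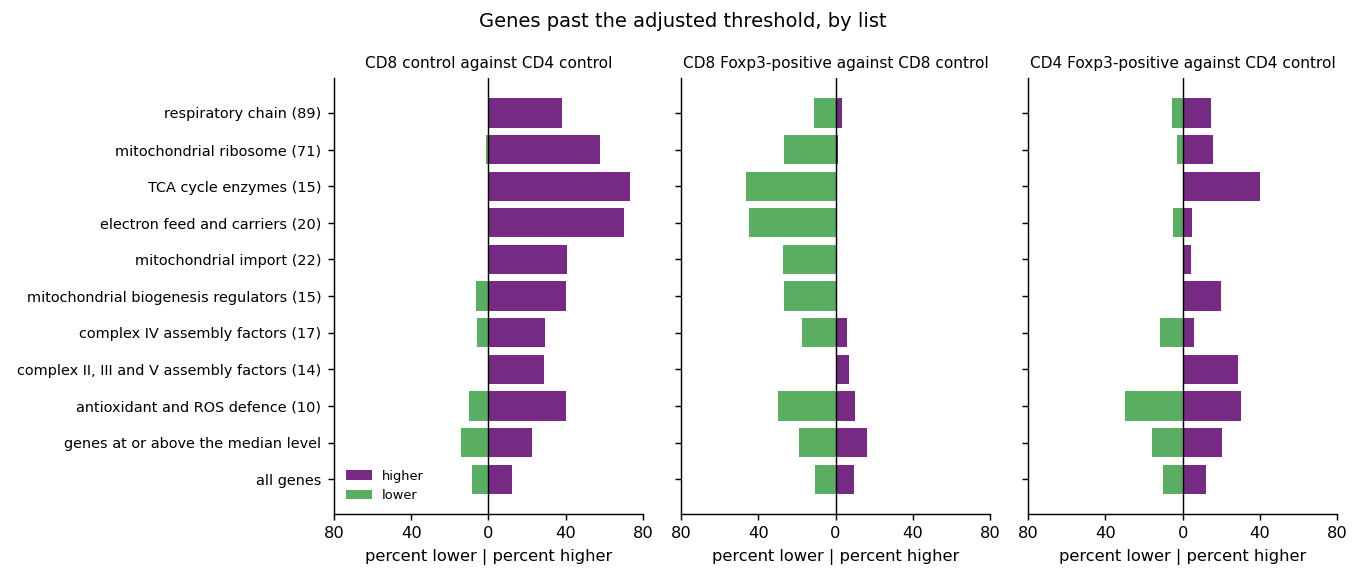
Percent of the genes of each list called higher (purple, right) or lower (green, left) in 3 comparisons, with the number of measured genes in brackets and the shares of all genes and of genes at or above the median level as the lowest bars. In CD8 control against CD4 control cells 38.2% of the chain, 57.7% of the mitochondrial ribosome and 73.3% of the TCA cycle were higher.

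In CD8 Foxp3-positive against CD8 control cells the lower members of these lists outnumbered the higher ones in all but the assembly factors of complexes II, III and V. Of genes at or above the median level 16.4% were higher and 18.8% lower, and the lists with the shares lower nearest to that were complex IV assembly (17.6%), biogenesis (26.7%), the ribosome (26.8%) and import (27.3%). The TCA cycle had 7 of 15 lower and 0 higher, led by Dlat, a subunit of pyruvate dehydrogenase (-0.75 ± 0.09), and citrate synthase, Cs (-0.50 ± 0.10). The mitochondrial ribosome had 19 of 71 lower and 1 higher, with Mrpl35 at -0.80 and Mrps22 at -0.78. Electron feed and carriers had 9 of 20 lower and 0 higher, among them Gpd2, the glycerol-3-phosphate dehydrogenase that reduces ubiquinone (-0.73 ± 0.11), and Dhodh of pyrimidine synthesis (-0.62 ± 0.14). Import had 6 of 22 lower and 0 higher, with the chaperones Hspd1 (-1.01 ± 0.13) and Hspa9 (-0.64). Among the regulators of biogenesis Pprc1 (-0.67) and the mitochondrial transcription factor Tfb1m (-0.66) were 2 of 4 that fell, and 0 rose. The complex IV assembly factors had 1 higher, Pet100 (0.47), and 3 lower, among them Cox18 (-0.47). The other assembly factors had 1 higher, Uqcc3 (0.38), and 0 lower, and oxidant defence had 1 higher and 3 lower, with glutathione reductase, Gsr, at -0.88 and Prdx3 at -0.51. The counts of 0 in limma stayed 0 at an unadjusted p under 0.05, but for 1 higher among the regulators of biogenesis.

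In CD4 Foxp3-positive against CD4 control cells 20.6% of genes at or above the median level were higher and 15.9% lower. The shares higher of the ribosome (15.5%), biogenesis (20%), electron feed (5%), import (4.55%) and complex IV assembly (5.88%) lay below that. The TCA cycle (40%) had 6 higher and 0 lower, with Suclg2 (0.99 ± 0.15) and Pdha1 (0.47) the largest. The assembly factors of complexes II, III and V had 4 higher and 0 lower. Sdhaf1, which helps to insert iron-sulfur clusters into Sdhb, stood at 8.41, 8.58 and 8.12 in CD4 Foxp3-positive arrays against 7.29, 7.11 and 7.23 in CD4 control arrays (1.16 ± 0.13, limma adjusted p = 2.4e-05). Sdhb itself had -0.23 ± 0.11 in the same comparison and did not pass (adjusted p = 0.139). Lyrm7, which serves the Rieske protein, had 0.55. Sco1, a copper chaperone of complex IV, was lower (-1.17 ± 0.11), as was Cox18 (-0.56), and the copper chaperone Cox17 was the 1 gene of that list that was higher (0.51). The mitochondrial ribosome had 11 higher and 2 lower, with Mrps5 at 0.62 and Mrpl16 at 0.57, import 1 higher, Timm21 (0.47), and 0 lower, and biogenesis 3 higher and 0 lower, with Myc (0.85) and Twnk (0.54). Gpd2 (-0.62) and Coq2 (0.53) were the called genes of electron feed, and oxidant defence had 3 higher and 3 lower, with Gsr at -1.45 and Glrx2 at 0.65. At an unadjusted p under 0.05 the lists with 0 lower in limma had 1 lower each, but for the assembly factors of complexes II, III and V with 0.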

How the data were processed

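Total RNA of the sorted cells was labelled with the GeneChip WT Plus kit from 250 ng, per the labels. The deposited values are log2 expression levels per transcript cluster, which the authors made by RMA in Expression Console, per the submitters' processing notes. The sources used here give neither their versions nor a genome build or annotation. RMA brings the probe intensities of all arrays to 1 distribution, so a change in total RNA per cell would not show. The cluster values summarised from the probes need not share 1 distribution. The table held 34365 clusters, of which 23521 had 1 symbol in the platform annotation, 1814 several and 9030 none listed, and array medians lay between 5.23 and 5.33. Clusters with several or no symbols were left out, and where several clusters shared a gene (1082 genes) the brightest one was taken. Of the members 10 had more than 1 cluster. Symbols are those of the platform annotation and can be old.

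All 12 arrays entered 1 linear model with 4 group means (limma 3.58.1 in R 4.3.3, lmFit and eBayes, two-sided, 8 residual degrees of freedom, prior of 4.56 degrees of freedom with an SD of 0.142). Benjamini-Hochberg adjustment ran over the 22180 genes in each of 5 contrasts, and adjusted p-values under 0.05 were called. Across genes, which are not independent replicates, arrays correlated at 0.992 to 0.994 within a group and 0.962 to 0.991 between groups. The script was tested on simulated data for CD8 Foxp3-positive against CD8 control cells. It recovered 46.3% of 67 changes of 0.5 on the log2 scale, 97% of changes of 1 and 100% of changes of 2. Of the calls 4.71% were false. Changed genes were far fewer there than called genes here, so these shares need not hold for these data. A member that was not called is not shown to be unchanged. No batch, slide or scan date is given in the labels. Alternatives were the replicate letter as a block, eBayes with trend and robust, the mean of a gene's clusters, the genes at or above the median level alone, the arrays of the groups compared alone, centring each array on its median, and leaving out each array. Named members follow a rule: in each complex and contrast the 3 largest called changes, the brightest member and the brightest uncalled one, all of complex II, Cycs and Cyc1, and the isoform sets of complex IV and the c ring. From each supporting list the rule takes the 2 largest called changes in the CD8 and in the CD4 contrast. Ndufs5, Ndufs7, Ndufv1 and Cox17 fall outside this rule and were picked with their values in view. Ndufaf4 also falls outside it and was named for its promoter match. The members, lists and alternatives were chosen with earlier results of these data known.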

Additional observations from a re-analysis of the deposited data

Results flagged for a closer look

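For 12 members the effect in CD8 cells, Foxp3-positive against control, differed from that in CD4 cells by a test of the difference itself (limma, adjusted p under 0.05 over all genes). They were 13.5% of the 89 members, near the 13.4% of genes at or above the median level that were called lower. The differences on the log2 scale, CD8 effect minus CD4 effect, were -1.27 for Ndufa4, -0.72 for Ndufaf6, -0.68 for Ndufs1 and -0.67 for Ndufaf7. For Uqcrfs1 the difference was -0.58, for Atp5o -0.57, for Ndufa12 -0.51 and for Sdha -0.49. Uqcrc2 had -0.47, Ndufb8 -0.44, Sdhd -0.40 and Atp5g2 -0.40. All 12 were negative. Each includes the difference between the control groups, which were cultured for 4 days (CD8) and 5 days (CD4).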

How the results depend on the processing

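Of 79 calls of a member in a comparison 40 were kept in every alternative run for that gene, by comparison 6 in CD8 Foxp3-positive cells, 5 in CD4 Foxp3-positive cells, 5 in the interaction, 0 between the Foxp3-positive groups and 24 between the controls. Values of named genes under the alternatives kept their side of the threshold in 4884 cases, which include uncalled values that changed direction. They fell out of the call in 183 and entered it in 70, and a called value reversed in 0. With trend and robust settings the calls were 5 higher and 13 lower in CD8 cells and 17 and 5 in CD4 cells. They were 3 and 19 in the interaction, 5 and 1 between the Foxp3-positive groups and 42 and 1 between the controls. With genes at or above the median level alone they were 4 higher and 14 lower in CD8 cells and 19 and 5 in CD4 cells. In the interaction they were 3 and 19, between the Foxp3-positive groups 5 and 1, and between the controls 43 and 2. The mean of clusters gave 2 higher and 10 lower in CD8 cells and 13 and 3 in CD4 cells. It gave 0 and 10 in the interaction, 1 and 1 between the Foxp3-positive groups and 34 and 0 between the controls. The arrays of the groups compared alone gave 2 and 7 in CD8 cells and 9 and 4 in CD4 cells. Between the Foxp3-positive groups they gave 0 and 1, and between the controls 28 and 0. Centring each array gave 3 and 8 in CD8 cells and 18 and 4 in CD4 cells. It gave 0 and 15 in the interaction, 1 and 1 between the Foxp3-positive groups and 38 and 0 between the controls. Leaving out each array gave 1 to 3 higher and 5 to 11 lower in CD8 cells, 5 to 14 higher and 0 to 5 lower in CD4 cells, 0 to 1 higher and 5 to 13 lower in the interaction, 0 to 2 higher and 0 to 1 lower between the Foxp3-positive groups, and 26 to 34 higher and 0 to 1 lower between the controls. The replicate letter as a block gave 3 higher and 7 lower in CD8 cells, 12 and 5 in CD4 cells, 0 and 9 in the interaction, 1 and 1 between the Foxp3-positive groups and 33 and 1 between the controls. The letters were not taken to pair samples in the main model, since no label says that equal letters do. Deviations from the group means correlated at -0.102 to 0.137 over 18 pairs of the same letter, with 2 of them over 0.1. Pairs of different letters from different groups correlated at -0.14 to 0.088. An array correlated best with its own letter in 19 of 36 cases, above the 1 in 3 that letters without meaning would give. These values do not settle whether the letters pair samples. The cause of these shifts was not tested. With no background level, signals of the 6 members below 5.60 limit what their folds mean, and scanner files were not used here.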

Other observations

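Clusters that carry a respiratory chain symbol beside another symbol were left out of the counts above and fitted apart. In CD8 control against CD4 control cells all 10 had positive log2 fold changes, from 0.11 to 0.56. The share of positive values over all clusters was not computed. These are not 10 further genes, since Cox6c with Gm6265 and Ndufs6 with Ndufs6b each stood on more than 1 cluster. Ndufs1, Uqcrb and Ndufs5 are members already. The cluster shared by Ndufb4, Ndufb4b and Ndufb4c had 0.43 there and -0.43 in the interaction. The cluster of Ndufs1 and Ino80dos had 0.27 in CD8 Foxp3-positive against CD8 control cells, where Ndufs1 alone had -0.42, and the cluster of Ndufb2 and Adck2 had 0.41 in CD8 and 0.89 in CD4 Foxp3-positive against control cells. Probes of such clusters can read more than 1 gene.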
